A study of Mus musculus with 4 samples.

Results

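The Hox genes encode homeodomain transcription factors, and the peak rows described here are those of the deposited m6A tables that carry a Hox gene's name (a letter a to d and a number). There were 82 such rows among the 34406 of the sham peak list, 99 among the 33556 of the CCI peak list and 14 among the 4812 of the authors' table of group differences. The rows named 35 Hox genes, out of 13558 gene names in the 3 tables, and the RefSeq table of mouse genes lists 39 Hox genes. m6A is a methyl mark on adenosines inside mRNA. It was mapped by MeRIP-seq, in which fragmented RNA is captured with an antibody against m6A (IP) and compared with the uncaptured RNA (input).

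Spinal cords came from male C57BL/6J mice 6 to 8 weeks old, with no transgene or mutation named for either group. In the chronic constriction injury (CCI) group the sciatic nerve was tied loosely with silk. The sham group had the operation with no ligature, and both tissues were taken on day 7. Each group had 1 IP library and 1 input library, and the number of mice behind a library is not stated. Differences between CCI and sham are therefore described with no test. Read counts are not among the deposited values, so how deeply each library was read is unknown.

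The 39 genes lie in 4 clusters, Hoxa on chromosome 6, Hoxb on chromosome 11, Hoxc on chromosome 15 and Hoxd on chromosome 2, and genes at matching places of the clusters form 13 paralog groups. In the embryo the order of the genes along a cluster follows the order of their domains from head to tail, with low numbers in the hindbrain and neck and high numbers in the lumbar and tail regions. In the spinal cord they set the identity of motor columns and pools and of dorsal interneurons, together with the TALE cofactors of the Pbx and Meis families. Adult spinal cord keeps Hox transcripts from this positional code.

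The clusters also hold miRNA genes, and the mature strands of miR-10 and miR-196 are known regulators of Hox mRNAs. These strands and miR-615-5p are printed here because the 6 hairpins lie among the peaks. The letters are from RefSeq (GRCm38), 5′ to 3′, with the seed, bases 2 to 8, in capitals.
miR-10a-5p: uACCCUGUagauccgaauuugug
miR-10b-5p: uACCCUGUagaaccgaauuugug
miR-196a-5p: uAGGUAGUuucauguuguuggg
miR-196b-5p: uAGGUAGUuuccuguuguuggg
miR-615-5p: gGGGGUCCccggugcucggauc
miR-10a and miR-10b shared a seed, and so did miR-196a, encoded by a Hoxb and a Hoxc locus, and miR-196b, so that the 6 hairpins held 3 seeds. None of the 6 hairpins lay under a peak of either list. The nearest peaks to the Mir10a hairpin (chr11:96317165-96317274) were those of Hoxb4, 1530 bp away in both lists. The Mir10b hairpin (chr2:74726070-74726137) had its nearest sham peak at 1127 bp and its nearest CCI peak at 770 bp, both named Hoxd3. The Mir615 hairpin (chr15:103014910-103015001) was the closest to a peak, at 227 bp in sham and 392 bp in CCI.

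Nearly every Hox gene carried an m6A peak in the sham list and in the CCI list. By the authors' gene names 35 of the 39 Hox genes had a peak in sham and 34 in CCI, and all 34 were among the 35. All 11 Hoxa genes had a peak in both lists, as did 9 of 10 Hoxb genes and 8 of 9 Hoxc genes. Of the 9 Hoxd genes 7 had a peak in sham and 6 in CCI. Hoxb1, a hindbrain gene of the first paralog group, and Hoxd12 had no row in any table. Hoxd13, best known from the limbs and the genital tubercle, had a single weak row, at 4.18 in sham, that found no partner in CCI.

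**Figure D1:**
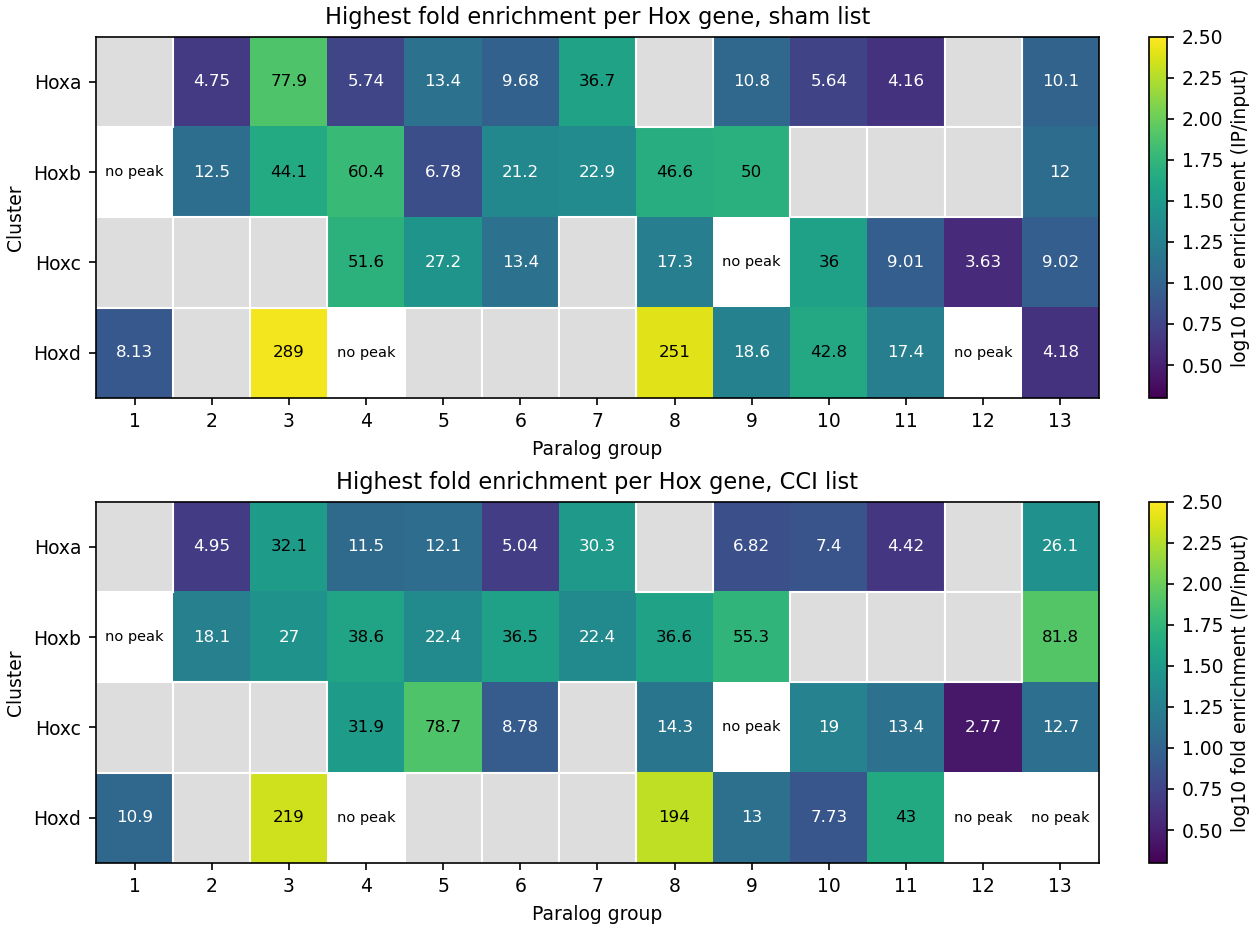
Highest fold enrichment (IP over input, printed in each cell, coloured on a log10 scale) for each Hox gene by cluster (rows) and paralog group (columns), in the sham list (top) and the CCI list (bottom). Grey cells have no gene or are not shown, and white cells are genes with no row of that name; Hoxd3 (289 in sham, 219 in CCI) and Hoxd8 (251 and 194) stand highest in both lists.

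Hox peaks were more enriched than the usual peak of the same library. The fold enrichment, the authors' ratio of IP over input, had a median of 9.02 over the 82 Hox rows of sham, beside 5.70 over all sham rows. In CCI the medians were 7.56 over the 99 Hox rows and 5.72 over all rows. Taking only the most enriched peak of each gene, the Hox medians were 13.4 in sham and 18.6 in CCI, so the order of the groups depends on the unit counted. A fold enrichment of at least 10 was reached by 45.1% of the Hox rows in sham (95% Wilson interval 34.8 to 55.9) and by 44.4% in CCI (35.0 to 54.3), beside 30.9% and 30.5% of all rows. These intervals, like the others below, cover counting error only, and some Hox rows share bases and are not separate sites.

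The strength of a peak was also read from the authors' log10 p of IP against input, a score that falls as the IP signal and the depth grow. By this score the 3′-UTR peak of Hoxb8 was the strongest of all Hox peaks in both lists. Hoxb8 acts in the dorsal spinal cord, where its loss alters sensory responses in mice. This peak (chr11:96284208-96285135 in sham) was enriched 46.6-fold in sham and 36.6-fold in CCI, and its log10 p values were -3610 and -2360. It ranked 57 of 34406 rows in sham and 204 of 33556 in CCI. The other leading peaks were those of Hoxd10 and Hoxd11, Hoxd8, Hoxa7, Hoxb6, Hoxc10 and Hoxb7, all genes of paralog groups 6 to 11. The median score did not follow these single peaks. In sham it was -78.9 for groups 1 to 3, -45.6 for groups 4 to 8 and -20.2 for groups 9 to 13. The same medians in CCI were -24.8, -13.5 and -22.6.

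Among the leading peaks, the 3′-UTR peak of Hoxd8 (chr2:74706591-74706949) had identical borders in both lists and was at 20.1 in sham and 18.1 in CCI. Another, in Hoxa7 (chr6:52215180-52215869), a gene of trunk identity, was also a 3′-UTR peak with identical borders, with 36.7 in sham and 30.3 in CCI. Both were a little lower in CCI, with log2 ratios of -0.15 and -0.28. Most of the Hoxa7 peak lay past the 3′ end of the RefSeq gene. In Hoxb7 the 3′-UTR peak had 22.9 in sham and 22.4 in CCI. In Hoxb6 it had 21.2 in sham and 20.0 in CCI. These strong peaks of neighbouring Hoxb genes therefore stood close to the line of equal enrichment, with log2 ratios of -0.03 for Hoxb7 and -0.08 for Hoxb6.

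**Figure D2:**
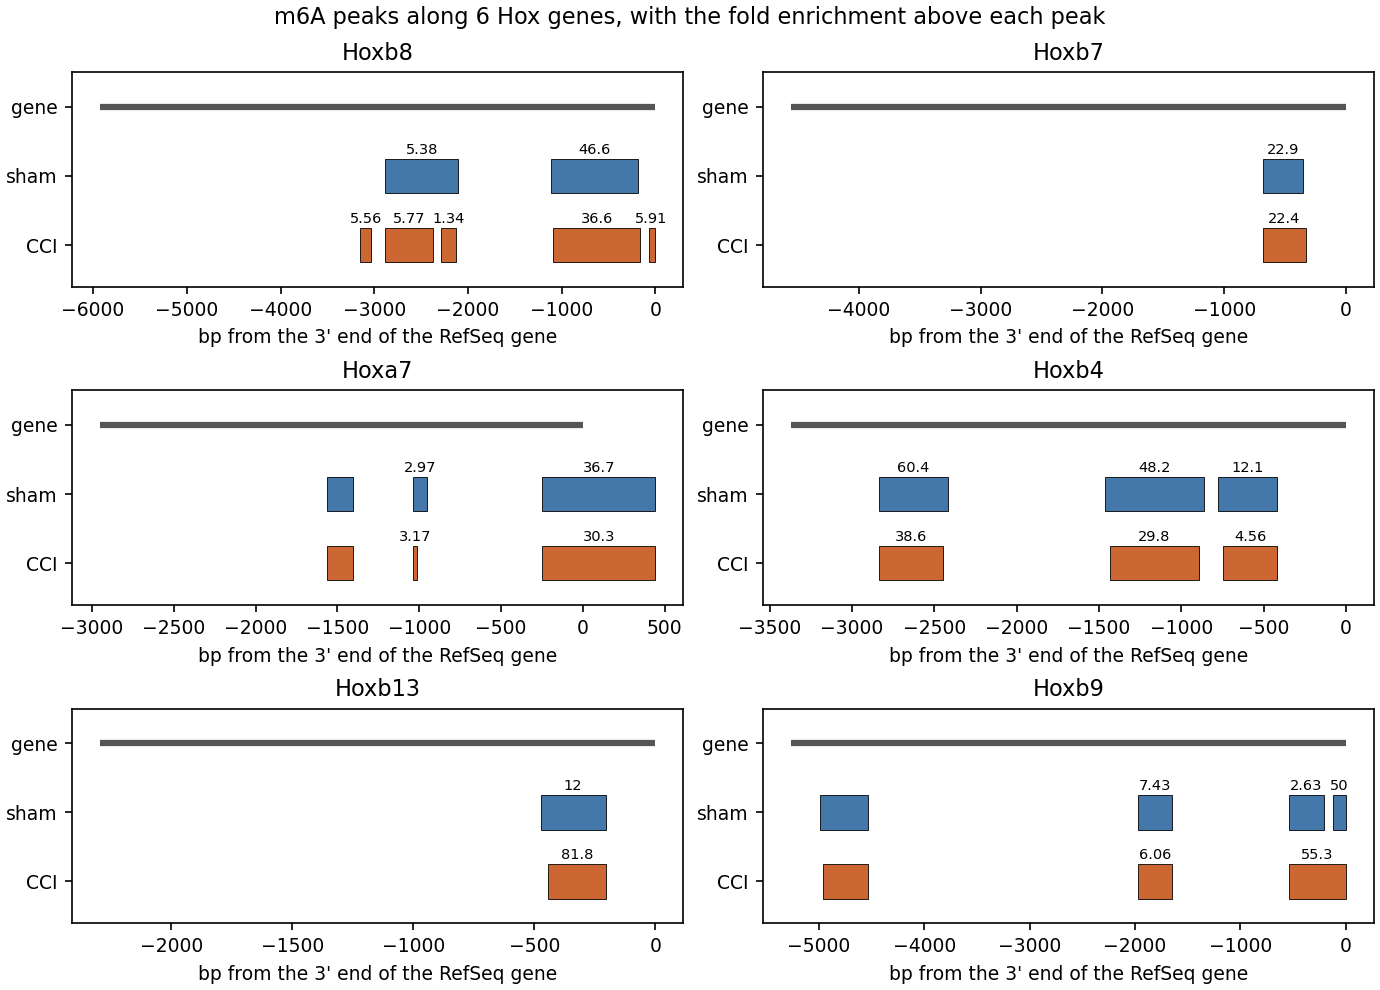
Peaks of 6 Hox genes in bp from the 3′ end of the RefSeq gene (grey bar), with sham in blue, CCI in orange and the fold enrichment above each peak (above the rightmost part where a peak joins parts across an intron). Hoxb8, Hoxb7 and Hoxa7 keep their main peak with a like value, the Hoxb4 peaks are lower in CCI, Hoxb13 is higher in CCI, and Hoxb9 has 1 row at its end in CCI where sham has 2.

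Peaks were paired between the lists where each was the other's best partner. Partners were ranked by their shared exonic bases as a fraction of the bases that either peak covers. This gave 74 pairs with a Hox name on both sides, among 27380 pairs in all. Of the Hox pairs 44 were lower in CCI, 59.5% of the 74 (48.1 to 69.9), beside 47.8% of all pairs. The median log2 ratio of CCI over sham was -0.14 for the Hox pairs and 0.03 for all pairs, and the quartiles were -0.55 and 0.36 for Hox and -0.37 and 0.43 for all. The offset was thus small beside the spread of single pairs. Fewer cells of a type and less RNA per cell cannot be told apart in bulk tissue, and a fold enrichment, being relative to input, does not give the amount of either.

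Past a fold of 2 in either direction (a log2 ratio of at least 1 or of -1 or lower) the Hox pairs were close to the background. There were 8 of 74 higher in CCI, 10.8% (5.58 to 19.9), beside 8.59% of all pairs. There were 5 of 74 lower in CCI, 6.76% (2.92 to 14.9), beside 7.25% of all pairs. At a log2 ratio of 0.58 or more in size, 13 of the 74 Hox pairs were higher and 16 of the 74 lower in CCI. Over all pairs the shares were 19% higher and 16.6% lower. The log10 p was weaker in CCI for 56 of the 74 Hox pairs (75.7%) and for 70.2% of all pairs, so a weaker score in CCI was a feature of the whole list.

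**Figure D3:**
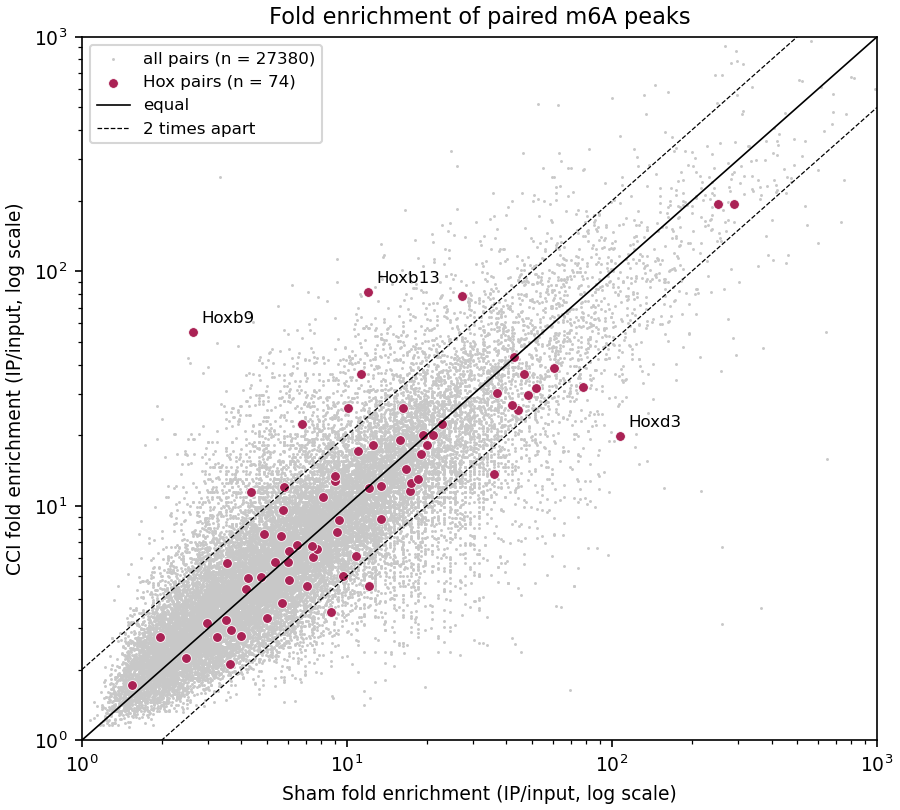
Fold enrichment in sham (x axis) and CCI (y axis), both on log scales from 1 to 1000, for all 27380 peak pairs (grey, those inside the axes) and the 74 Hox pairs (red). The solid line marks equal values and the dashed lines a fold of 2; Hoxb9 and Hoxb13 lie farthest above and Hoxd3 farthest below.

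Of the 8 pairs that were higher in CCI, 4 had borders that agreed for at least 80% of both peaks. Hoxb13, a gene of the tail end of the body axis, had a 3′-UTR peak at 12 in sham and at 81.8 in CCI (log2 ratio 2.77), while its log10 p was almost the same in both lists, -25.7 and -26.8. Hoxb5 had a 5′-UTR peak (chr11:96303336-96303665) with identical borders, at 6.78 in sham and 22.4 in CCI (log2 ratio 1.72). A second, shorter pair inside it had 4.36 and 11.5, so the 2 Hoxb5 pairs are the same site. Its neighbour Hoxb6 had a 5′-UTR peak at 11.3 in sham and 36.5 in CCI (log2 ratio 1.69). In both lists this Hoxb6 row and the longer Hoxb5 row had most of their exonic bases outside the RefSeq span of every Hox gene. Both also lay over the RefSeq span of Hoxb5os, so the label may not refer to a 5′-UTR of the named gene. Hoxa13, a gene of the digits and the hindgut, had a 3′-UTR peak at 10.1 in sham and 26.1 in CCI (log2 ratio 1.37). These 4 sites were of modest strength, with log10 p values from -10.7 to -26.8.

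The other pairs higher in CCI had unequal borders or a weak signal. At the end of Hoxb9, a trunk gene of paralog group 9, sham had 2 rows, with fold enrichments of 2.63 over 331 bp and 50.0 over the last 121 bp, and CCI had a single row of 540 bp with 55.3. The log2 ratio of 4.39, the largest of the Hox pairs, set the first of these sham rows against the whole CCI row, and so did not compare the same bases. A 3′-UTR row named Hoxc5 had 27.2 in sham and 78.7 in CCI (log2 ratio 1.53), with 60.8% of the sham peak inside the CCI peak. The same sham row also overlapped another CCI row named Hoxc5, of 301 bp with 24, which the ratio leaves out. The position of the pair lies over Hoxc9, as described further on.

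Of the 5 pairs that were lower in CCI, 2 had borders that agreed for at least 80% of both peaks. An exon peak of Hoxa3 (chr6:52172175-52172534 in sham), a gene of neck and pharyngeal development, had 77.9 in sham and 32.1 in CCI (log2 ratio -1.28), with log10 p values of -70.4 and -81.1. The last 3′-UTR peak of Hoxb4, a gene of the neck vertebrae and of blood stem cells, had 12.1 in sham and 4.56 in CCI (log2 ratio -1.41). The other Hoxb4 peaks were also lower in CCI, 60.4 against 38.6 in an exon and 48.2 against 29.8 in the 3′-UTR. Hoxb4 thus had all 3 of its pairs lower in CCI.

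The other 3 had unequal borders. The last peak of Hoxc10, which acts in lumbar motor neurons, had 36.0 in sham and 13.6 in CCI (log2 ratio -1.40). A row named Hoxc8, which begins over Hoxc10, had 8.72 in sham and 3.51 in CCI (log2 ratio -1.31). It shared bases with a stronger row, named Hoxc5 in sham and Hoxc10 in CCI. The pair of that stronger row went the other way, with 15.9 in sham and 19 in CCI (log2 ratio 0.26). A row of Hoxd3, joined across introns, had 107 over 2660 exonic bases in sham and 19.9 over 1525 in CCI (log2 ratio -2.43). Its parts are listed again as rows of their own, and these were nearer to each other. In Hoxd3 the 5′-UTR peak had 19.3 in sham and 20.1 in CCI, and the 3′-UTR peak had 289 in sham and 194 in CCI, the latter over 1196 and 779 bp.

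**Figure D4:**
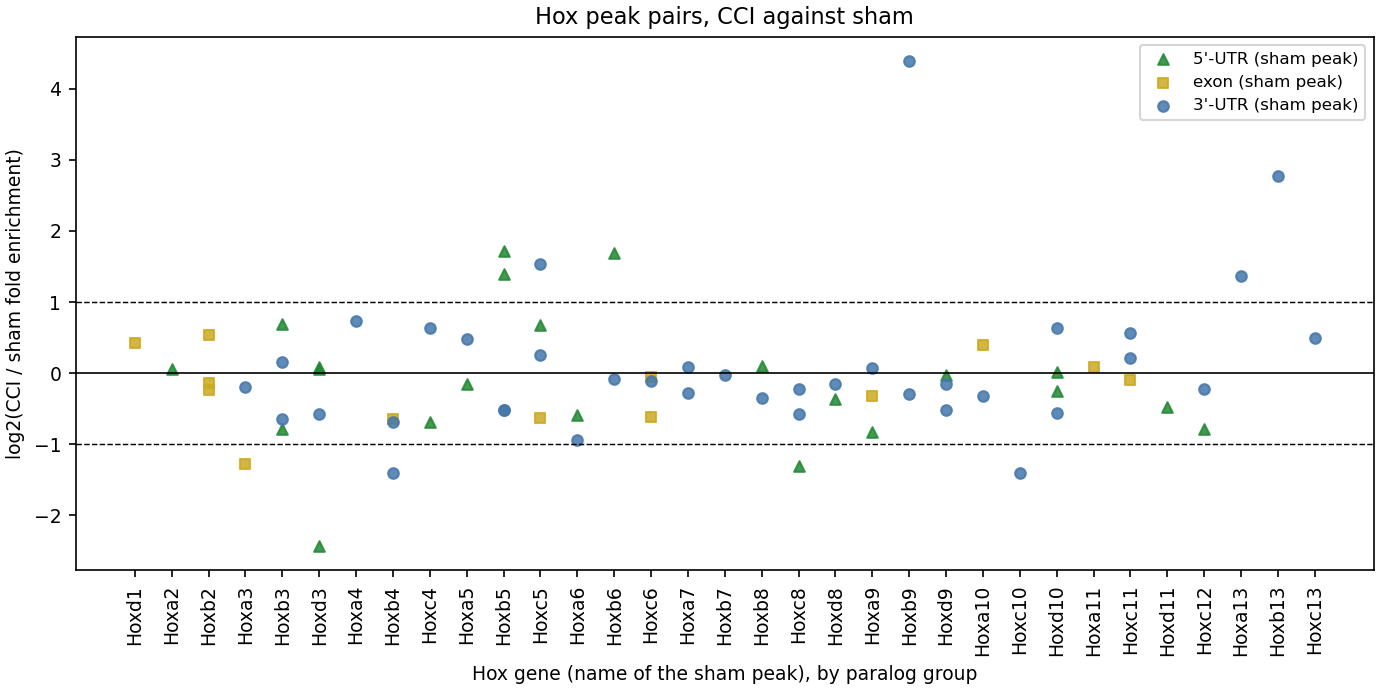
Log2 ratio of CCI over sham fold enrichment (y axis) for 73 of the 74 Hox pairs, by gene in the order of the paralog groups (x axis) and by region of the sham peak (colour and shape). Dashed lines mark log2 ratios of 1 and -1; 61 pairs lie between them.

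By paralog group the offset was small throughout. Groups 1 to 3 had 8 of 16 pairs lower in CCI and a median log2 ratio of -0.04. Groups 4 to 8 had 22 of 33 lower and a median of -0.15. Groups 9 to 13 had 14 of 25 lower and a median of -0.09. The 4 clusters were alike in this, with medians of -0.04 for Hoxa, -0.11 for Hoxb, -0.11 for Hoxc and -0.15 for Hoxd. The level of enrichment differed more. The median fold enrichment in sham was 12.5 for groups 1 to 3, 11.7 for groups 4 to 8 and 5.70 for groups 9 to 13, and in CCI it was 7.62, 8.72 and 7.11. These medians follow the authors' gene names. Placed by the RefSeq span that holds most of the peak, the rows of groups 1 to 3, 4 to 8 and 9 to 13 had medians of 15.8, 11 and 6.50 in sham and of 12, 6.16 and 7.11 in CCI, so that the lowest of the 3 in CCI depends on the names.

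The genes of groups 5 and 6 include those that mark the phrenic and forelimb motor neurons. Hoxa5, which the phrenic motor column needs, had a 5′-UTR peak at 13.4 in sham and 12.1 in CCI. Hoxc6, a gene of forelimb motor neurons, had a 3′-UTR peak at 9.33 in sham and 8.66 in CCI. Its exon peak that joins parts across an intron had 13.4 and 8.78. In Hoxa6 the 3′-UTR peak was lower in CCI, 9.68 against 5.04, short of the fold of 2. All 3 pairs of Hoxc6 and both of Hoxa6 had a log2 ratio below 0.

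Group 4 also held a long 5′-UTR peak of Hoxc4 over 1613 exonic bases in sham, with 51.6 in sham and 31.9 in CCI. In Hoxa4 the 3′-UTR peak went the other way, with 5.74 in sham and 9.59 in CCI. Hoxc8, which sets motor pools of the forelimb, had a 3′-UTR peak at 16.7 in sham and 14.3 in CCI. The pairs of group 4 did not share a direction, and in group 8 the pairs were lower in CCI except the 5′-UTR pair of Hoxb8 (5.38 and 5.77).

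Among the genes of groups 9 and 10, several peaks were close between the lists. Hoxd10, which acts in lumbar motor neurons, had a 5′-UTR peak at 9.19 in sham and 7.73 in CCI, with log10 p values of -475 and -279. In Hoxd9 the 5′-UTR peak had 12.1 in sham and 11.9 in CCI. Hoxa10 in its 3′-UTR had 3.66 in sham and 2.94 in CCI. Hoxa9 in its 3′-UTR had 6.50 in sham and 6.82 in CCI. Other pairs of the same genes were farther apart. The 5′-UTR pair of Hoxa9 was lower in CCI, 10.8 against 6.08 (log2 ratio -0.83). The last 3′-UTR pair of Hoxd9 had 18.6 in sham and 13 in CCI. The 3′-UTR pairs of Hoxd10 had opposite signs, 5.70 against 3.86 and 4.89 against 7.56.

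The peaks of the tail-end genes differed in strength, with low fold enrichments in Hoxa11 and Hoxc12. Hoxa11, known from the forearm and uterus, had 4.16 in sham and 4.41 in CCI near the start of the gene. Hoxc12 had a 5′-UTR peak at 3.63 in sham and 2.12 in CCI. Hoxc13, a gene of hair follicles, had a 3′-UTR peak at 9.02 in sham and 12.7 in CCI. The 3′-UTR peaks of Hoxc11 were also a little higher in CCI, 9.01 against 13.4 and 4.22 against 4.93. The 3′-UTR pairs of Hoxa13, Hoxb13, Hoxc13 and Hoxc11 were thus higher in CCI, and that of Hoxc12 was not (3.23 against 2.77), a grouping made after the values were seen.

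Most Hox peaks had a partner in the other list. In sham 77 of 82 Hox rows overlapped a CCI peak, leaving 5 without a partner, beside 16.1% of all sham peaks without one. The share with a partner was 93.9% (86.5 to 97.4) for Hox and 83.9% for all sham peaks. In CCI 87 of 99 overlapped a sham peak (87.9%), leaving 12 without one, beside 12.3% of all CCI peaks. The 5 rows found in sham alone were those of Hoxd13, Hoxa11 (2.01), Hoxc13 (3.34 and 2.49) and Hoxc8 (8.63). The 12 found in CCI alone were 3 of Hoxa4, 2 each of Hoxb8 and Hoxc8, and 1 each of Hoxa5, Hoxb5, Hoxc5, Hoxc13 and Hoxd3. Their fold enrichments lay between 1.66 and 15.1, and the 2 of Hoxc8 overlap each other.

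Part of the Hox rows were the same site listed in parts or more than once, in both lists. Hoxd3 had 5 rows in sham and 11 in CCI, and its 3′-UTR peak alone was listed 2 times in sham (289 and 265) and 3 times in CCI (219, 194 and 181), with borders a few bases apart. Hoxb8 had 2 rows in sham and 5 in CCI, and its CCI rows did not overlap each other. Its sham 5′-UTR row (5.38) lay over 2 CCI rows (5.77 and 1.34), and 2 further CCI rows had no sham partner. With overlapping rows of a gene counted as 1, there were 71 Hox peaks in sham and 84 in CCI, so CCI still had more.

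The authors' 5′-UTR label was more frequent among Hox rows than among all rows. By that annotation 26.8% of the Hox rows in sham (18.4 to 37.3) were in a 5′-UTR, beside 16.1% of all rows, and in CCI the shares were 27.3% (19.5 to 36.8) and 14.7%. However, 7 of these 22 Hox rows in sham and 9 of the 27 in CCI were not placed on the RefSeq span of the gene they name. For such rows the label may not refer to a 5′-UTR of the named gene. The 3′-UTR held 51.2% of the Hox rows in sham and 53.5% in CCI, beside 48.9% and 49.8% of all. Other exons held 22% and 19.2% of the Hox rows, beside 35.1% and 35.5% of all. The 5′-UTR peak of Hoxd8 (251 in sham, 194 in CCI, over 1104 bp) was the most enriched of these. The label did not always match between the lists, and 6 of the 74 Hox pairs had another region on the other side, such as the 5′-UTR rows of Hoxb3 (44.1) and Hoxd3 (6.03) in sham, whose CCI partners (25.5 and 6.40) were labelled 3′-UTR.

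The RefSeq promoter table (GRCm38) has 24 windows for 22 Hox genes, each with the first 50 transcribed bases. A peak of either list lay over those bases in 7 windows. It covered all 50 bases in both lists for Hoxa5, Hoxc4 and Hoxd3, the last under a row named Hoxd3os1. The letters GGAC, the core most often linked to m6A, were searched on both strands. They were in none of the 24 windows on the transcribed strand and in 5 on the other, beside 18.9% and 17.4% of the 32851 windows of all genes. The looser cores GAC, which lies within GGAC, and AAC were in 11 of the 24 windows and in 68.6% of all. Of the 3 windows covered whole, only that of Hoxa5 held a core, which is shown in capitals in its stretch from base 4 to base 33 after the start (chr6:52204555-52204584, minus strand).
Hoxa5: cacccAACtcccccattagtgcacgagttt
A match is a description of these letters and not a mapped site.

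The gene names of the tables did not always match the position of the peak. In sham 6 of 82 Hox rows and in CCI 8 of 99 had most of their exonic bases in the smaller RefSeq span of another Hox gene. A further 7 rows in sham and 8 in CCI lay mostly outside every RefSeq Hox span, among them the strong Hoxa7 peak. Hoxc9, which sets the thoracic motor columns, had no row of its own name, but 3 rows named Hoxc5 in each list had most of their exonic bases in its RefSeq span (chr15:102977032-102984444). Hoxd4, of the neck region, had none either, and 1 sham row and 4 CCI rows named Hoxd3 had most of theirs in its span (chr2:74721978-74729160). Placed by RefSeq span, rows of any name lay over 37 Hox genes in sham and 36 in CCI, and so Hoxb1 and Hoxd12 were the Hox genes without a peak in either list.

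The strong peak at the border of Hoxd11 and Hoxd10 shows the same problem. It was listed as a row of Hoxd10 in sham (chr2:74683476-74694135) and of Hoxd11 in CCI (chr2:74683505-74684343), with fold enrichments of 42.8 and 43.0 and log10 p values of -1350 and -945. A row of Gm28309, a gene model that shares those exons, overlapped it with 114 in sham and 65.2 in CCI. The 3′ peak of Hoxc10 was likewise named Hoxc5 in sham (15.9, log10 p -626) and Hoxc10 in CCI (19.0, log10 p -464). A sham row named Mir615 paired with a CCI row of Hoxc5, with 4.76 and 3.86. At these sites the name differed between the lists while the position was shared.

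Antisense RNAs are made from all 4 clusters, and whether strand was used in peak calling is not stated. In sham 30 of 82 Hox rows and in CCI 36 of 99 lay over the RefSeq span of a gene that is not protein coding, among them Hoxb3os, Hoxb5os, Hoxaas3 and Hoxa11os. Their part in the Hox values was not tested. Of the 16 noncoding and other genes of the clusters that were looked up, 7 had a sham peak and 8 a CCI peak, with 8 pairs, of which 1 was higher and 2 lower in CCI past the fold of 2, beside 8.59% and 7.25% of all pairs. Haglr, the noncoding RNA between Hoxd3 and Hoxd1, had 27.5 in sham and 6.2 in CCI in 1 exon pair and, the other way round, 7.41 and 18.2 in the other. Hoxb5os had pairs in both directions, with 13.9 against 2.13 in the pair farthest apart. Hoxaas2 had 11 in sham and 9.03 in CCI, and Hoxd3os1 had 3.49 and 6.25. Evx1, a homeobox gene of V0 interneurons beside the Hoxa cluster, had 34.9 in sham and 21.4 in CCI. Evx2 beside the Hoxd cluster had a row in each list that did not pair (12.8 and 13.6), and Lnpk had 2.39 and 3.19. Hoxa11os had a row in CCI alone (3.47). Hotairm1, Hottip, Hotair, Hoxaas3, Hoxb3os, Hoxb13os, Haglros and Mtx2 had no row of their name in either list.

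The TALE cofactors, which bind DNA together with Hox proteins, all had peaks, 8 of 9 genes in sham and 9 of 9 in CCI. Of their 20 pairs 3 were higher and 2 lower in CCI past the fold of 2, 15% and 10% beside 8.59% and 7.25% of all pairs, and the median log2 ratio was 0.04, beside 0.03 over all pairs. Meis2 in its 5′-UTR had 3.87 in sham and 25.0 in CCI, and Pknox2 in its 5′-UTR had 16.3 and 58.6. The 3′-UTR pairs of Pknox2 were lower in CCI, with 30.9 and 13.1 in the one farthest apart. Meis3 in its 3′-UTR was also lower in CCI, with 12.8 and 3.59. Pbx2 had the most enriched peak of the family, in its 5′-UTR, with 173 in sham and 101 in CCI. Values for the pair farthest apart were 2.21 and 3.11 for Pbx3, 5.04 and 8.08 for Meis1, and 4.87 and 5.71 for Pknox1. Pbx4 had a row in CCI alone (2.56). The family had no common direction.

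Among the regulators of Hox transcription, Polycomb genes, which keep Hox loci silent, had peaks in 17 of 18 genes, Ezh2 being the one without (named after its values were seen). Of their 39 pairs 4 were higher (10.3%) and 6 lower (15.4%) past the fold of 2, beside 8.59% and 7.25% of all pairs. A log2 ratio below 0 was held by 25 (64.1%, beside 47.8% of all), and the median was -0.20, beside 0.03 over all pairs. Cbx2 had the largest difference, 74.4 in sham and 8.98 in CCI in the 3′-UTR. Its exon pair went the other way, with 3.1 in sham and 12.7 in CCI. Trithorax genes and demethylases, which keep Hox loci active, had peaks in 7 of 8 genes and 34 pairs, with 0 higher and 2 lower past the fold and a median of 0.00. Ash2l had the largest difference there, 119 in sham and 44.3 in CCI. Of the 11 genes of upstream patterning only Gdf11, Cyp26b1, Rara and Rarg had a peak, the last 3 named after their values were seen. They gave 9 pairs, 1 higher and 3 lower past the fold, with a median of 0.20. Gdf11, the signal that sets the caudal Hox domains, had 32.8 in sham and 82.7 in CCI.

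All 7 genes listed as motor neuron partners of the Hox genes had a peak in both lists, and the list includes the motor neuron marker Chat. Of their 14 pairs 4 were higher (28.6%, beside 8.59% of all pairs) and 0 lower (beside 7.25%) in CCI past the fold of 2, and the median log2 ratio was 0.33. The 4 were 2 of Foxp1 and 1 each of Isl1 and Isl2, Foxp1 and Isl2 being named after their values were seen. A log2 ratio below 0 was held by 6 of the 14 pairs (42.9%, beside 47.8% of all), among them those of Lhx3 (-0.30) and Mnx1 (-0.12) and 2 of the 3 of Chat, also named after their values were seen. The largest difference was in Isl1, a LIM homeobox gene of motor neurons and sensory neurons, with 6.97 in sham and 22.4 in CCI in the 3′-UTR. The median of this list, as of the others, stands beside 0.03 over all pairs.

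The labelled tissue was checked by whether marker genes had peaks, which needs both the RNA and the mark. All 3 neuron markers, 3 motor neuron markers, 2 astrocyte markers, 3 oligodendrocyte markers and 2 microglia markers had a peak in both lists, and the forebrain genes Emx1 and Tbr1 had none. The median log2 ratio of the motor neuron markers was -0.12 over 5 pairs. That of the microglia markers was -0.03, that of the astrocyte markers -0.10 and that of the neuron markers -0.01. The oligodendrocyte markers had a median of 0.11, and all pairs had 0.03. Their part in the Hox values was not tested.

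The authors' table of differences held 14 Hox rows in 12 genes, 0.291% of its rows, beside 0.238% of the sham list and 0.295% of the CCI list. The genes were Hoxa7, Hoxa9, Hoxa10, Hoxb3, Hoxb8, Hoxb9, Hoxc8, Hoxc10, Hoxc11, Hoxd8, Hoxd9 and Hoxd10. The Hox share of that table thus lay between those of the sham list and the CCI list.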

How the data were processed

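MeRIP-seq of mouse spinal cord had 1 IP and 1 input library per group. The submitters' processing notes name fastp, HISAT2, HOMER and ChIPseeker with GRCm38. The methods of the paper name Cutadapt, bowtie, MACS2 and ChIPseeker instead. Versions are not given in the sources used here. Libraries were stranded, and whether peak calling used strand is not stated.

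The fold enrichment is the authors' ratio of IP over input. The deposited p-values of each peak and their log10 values were made by the authors from IP against input, and the log10 values were handled as a score. The difference table's columns of differences between the groups are the authors' own comparison and were not used. No column holds counts, so no count test could be run, and fold enrichments carry no error.

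Hox rows were taken by gene name. Exonic blocks were compared with an overlap of at least 1 bp, and pairs were mutual best partners by shared bases. A pair counted as past the fold at a log2 ratio of at least 1 or of -1 or lower. Shares carry 95% Wilson intervals. Positions are GRCm38. All 35 Hox names were symbols in the RefSeq table of GRCm38.p6. The members and gene lists were chosen with earlier results of these data known. Named are Hox genes with a row, pairs past the fold, pairs of paralog groups 4 to 13, all TALE cofactors and cluster genes, in other lists the gene with the largest ratio, and genes whose rows overlap a Hox peak. Some items that this rule takes are not reported here. The pairing steps were tested on simulated data. Alternatives covered the overlap, the fold, the filters and the unit of counting. The tools were scipy 1.17.1, pandas 2.3.3, numpy 2.4.6 and matplotlib 3.10.9 under Python 3.11.15. A motif search inside the peaks was not run, since no genome sequence was used here.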

Additional observations from a re-analysis of the deposited data

How the results depend on the processing

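No paired analysis was possible because there was a single library of each kind per group. With no replicates, no library could be left out, and the depth and the spread between animals are unknown. Of 70 alternatives, 54 stayed within 1.5 times a count or inside the interval of a median or share. The median log2 ratio of the Hox pairs stayed below 0 in all 6 alternatives, from -0.17 to -0.03. With 1 value per gene, its most enriched peak, the median fold enrichment was 13.4 in sham and 18.6 in CCI, so its order between the groups turned. With an overlap of 50% of both peaks, 78.8% of the Hox rows in CCI had a partner, beside 76.2% of all CCI peaks. With a log2 ratio of 0.58, 13 of the 74 Hox pairs were higher and 16 of the 74 lower in CCI, beside shares of 19% and 16.6% over all pairs. With pairs that share 80% of both peaks (chosen after seeing the data), 4 of 41 Hox pairs were higher and 2 lower past the fold, and 28 had a ratio below 0 (68.3%, beside 46.2% of all such pairs). With 1 pair per group of overlapping pairs (also chosen after seeing the data), 3 were lower past the fold, and 37 of 66 had a ratio below 0 (56.1%). At 0.58 the lists held 4 lower pairs of TALE cofactors, 7 higher and 12 lower of Polycomb, 4 higher and 4 lower of Trithorax and demethylases, 2 higher of upstream patterning, 1 lower of motor neuron partners and 3 higher of the other cluster genes. The lower threshold accounts for the larger counts by construction.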

Other observations

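The Hox pairs were also divided by the weaker of their 2 log10 p values, a division chosen after the values were seen. Where it was -100 or lower, 14 of 20 Hox pairs were lower in CCI, with a median log2 ratio of -0.19, beside 45.8% lower and a median of 0.04 over the 4631 pairs of that strength in all. Between -20 and -100, 16 of 24 Hox pairs were lower, with a median of -0.17, beside 47.9% and 0.02 of all. Above -20, 14 of 30 were lower, with a median of 0.08, beside 48.4% and 0.02 of all. The weakest Hox pairs thus had a median above 0, and they held 14 of the 44 Hox pairs that were lower in CCI. These pairs share 1 library per group and partly overlap, and no test was made.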
